A study of Rattus norvegicus with 8 samples.

Results

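Liver RNA of female Wistar rats aged 2 weeks was compared with that of female Wistar rats aged 12 weeks, 2 arrays against 2 arrays out of the 8 arrays of the series. The members of the comparison were taken by the age in the sample titles, and the result is described across 14511 genes. Wistar is an outbred laboratory strain. All rats were described as healthy, were kept under a 12 h light period, and carried no transgene or drug treatment in the labels. The series also held 2 arrays of 4-week liver and 2 arrays of liver 8 h after partial hepatectomy, an operation in which 2/3 of the organ is cut away, and these entered the fit as groups of their own. RNA was read on Affymetrix Rat Gene 1.0 ST arrays, which carry many short probes per gene. Titles call the 2 arrays of an age biological replicates, whereas the design text speaks of each sample being processed in duplicate. No label says which animals, or how many, stand behind an array. The spread behind each p-value is thus that between arrays, and it may be technical in part.

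Rat liver is still being built at 2 weeks. A pup of that age normally lives on milk, which is rich in fat and poor in starch, and its hepatocytes oxidise fatty acids and make ketone bodies and glucose. The organ still enlarges by cell division, the blood-forming cells of the fetal liver are leaving it, and fetal proteins such as alpha-fetoprotein are being replaced. Weaning to a starch-rich diet in the following weeks, and later sexual maturation, set the adult pattern of lipid synthesis, bile acid synthesis and drug metabolism. Many of the adult rat enzymes follow the sex-dependent rhythm of growth hormone. The labels give the age of the rats and neither their diet nor their weaning day.

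Levels are given on the log2 scale, on which a step of 1 is a doubling. They come from robust multi-array averaging (RMA), a method that subtracts background, brings the arrays to one scale and merges the probes of a gene. Pairs of levels are array 1 and array 2 of a group, in that order. A difference is the 2-week mean minus the 12-week mean with its moderated standard error (SE), and a fold is that difference taken off the log2 scale. A gene is called at an adjusted p under 0.05 in limma, adjusted over all 14511 genes, and "rose" or "fell" is written only of called genes, always meaning at 2 weeks relative to 12 weeks. Levels of different genes are not compared, since probes differ in brightness.

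Hepatocyte markers were read first, since hepatocytes are the main cells of liver. Of 10 hepatocyte markers 0 were called in limma, with 1 at an unadjusted p under 0.05, and their median difference was 0.07. With 2.23% of all genes called, this count does not test the tissue label. The median level of the list was 13.66 and 13.51 at 2 weeks and 13.33 and 13.36 at 12 weeks. Albumin (Alb) stood at 14.19 and 14.14 at 2 weeks and 14.16 and 14.19 at 12 weeks, transthyretin (Ttr) at 13.59 and 13.42 against 13.22 and 13.59 and apolipoprotein A1 (Apoa1) at 13.86 and 13.71 against 13.44 and 12.64. The 12-week arrays were the least alike of any pair in the series. Their correlation over genes was 0.952 against 0.977 for the 2-week pair, and 1838 genes differed at least 2-fold between them against 480 between the 2-week arrays. Receptor genes of smell and related senses are not known to work in liver, and the median of 1283 of them was 4.74 and 3.92 at 12 weeks and 4.06 and 4.07 at 2 weeks. Calls lost and differences moved when 1 array is left out are named below with the value without it. Leaving out 1 of 2 arrays also widens the SE. A lost call thus need not mean that the result rests on that array, also where the 2 arrays of an age agree. Where 1 array is left out, the remaining array of its age is assumed to vary as the other groups do.

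At 2 weeks 323 of 14511 genes were called against 12 weeks (2.23% of genes tested), 187 higher (1.29%) and 136 lower (0.937%). Counts of calls in the lists below are to be read against these shares. At an unadjusted p under 0.05 there were 1616 genes, and at an adjusted p under 0.01 there were 109. The median difference over all genes was -0.01. Of the called genes, 85 were higher by at least 2 log2 units and 71 lower by at least 2, and 14 and 11 passed 4 units. Both 2-week arrays lay above both 12-week arrays in 2559 genes (17.6%) and below them in 2437 (16.8%). With 2 arrays against 2, shares close to these arise without any age difference. Lack of overlap in a gene, where given below, is thus by itself no support for an age difference. Without 2-week array 1 the count of calls was 101 (46 higher, 55 lower), and without 12-week array 1 it was 253 (102 higher, 151 lower). Without 2-week array 2 it was 224 (155 higher, 69 lower), and without 12-week array 2 it was 382 (196 higher, 186 lower). The plot of difference against level shows the called genes.

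**Figure D1:**
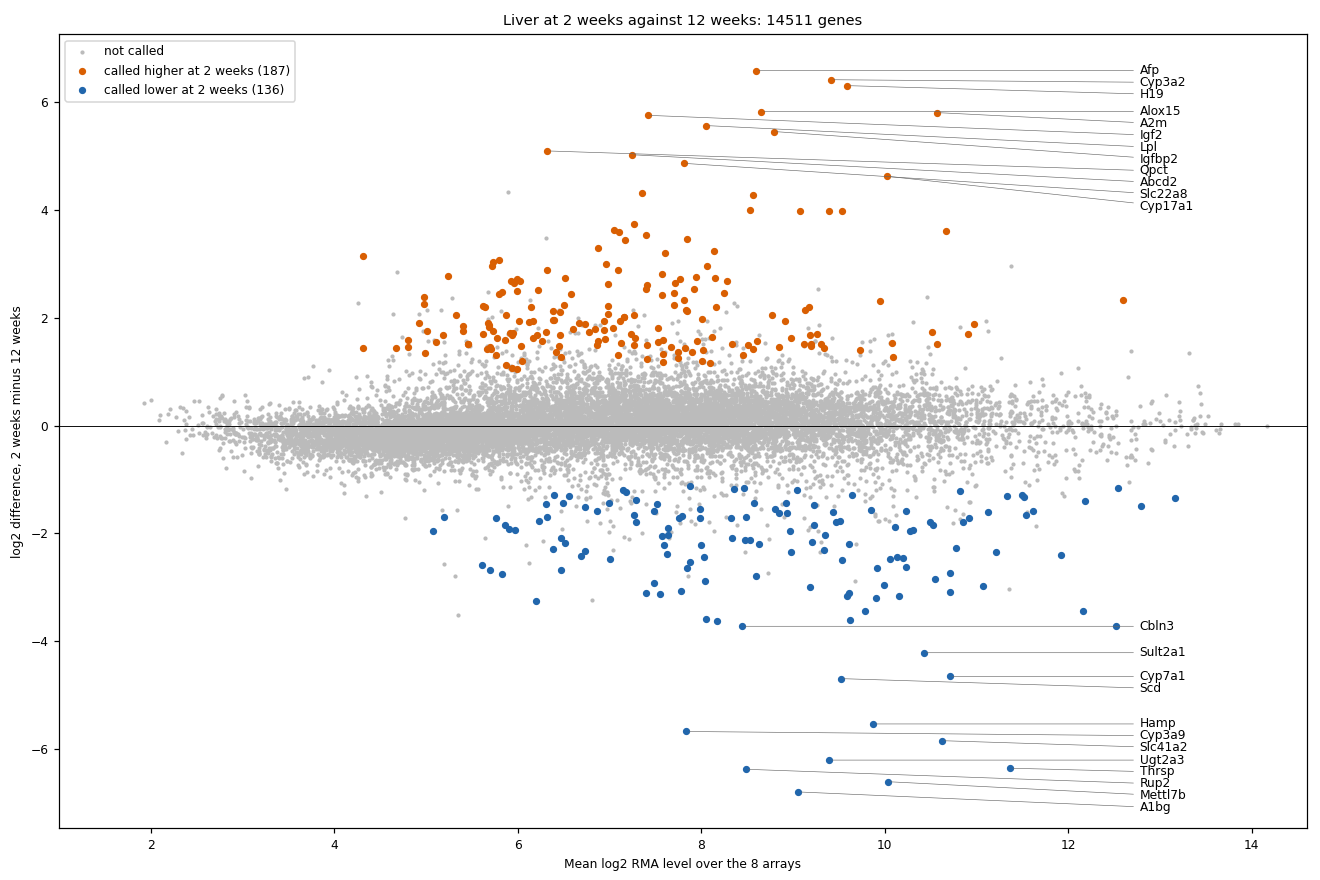
Difference in log2 level (2 weeks minus 12 weeks, vertical axis) against the mean log2 level over the 8 arrays (horizontal axis) for 14511 genes, 1 grey point each. Orange points are the 187 genes called higher at 2 weeks and blue points the 136 called lower, and the 12 largest rises and 12 largest falls are named.

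The 12 largest rises came from several roles. Alpha-fetoprotein (Afp), the albumin-like serum protein of fetal life, stood at 13.70 and 13.44 at 2 weeks and 6.52 and 7.46 at 12 weeks, a difference of 6.58 ± 0.33 (limma adjusted p = 1.0e-04) or 95.7-fold. H19, a long non-coding RNA of an imprinted growth locus, read 13.75 and 13.30 against 7.23 and 7.21 (6.30 ± 0.41, adjusted p = 2.5e-04). Igf2, the growth factor encoded beside it, read 12.27 and 10.92 against 5.84 and 5.85 (5.75 ± 0.39, adjusted p = 2.8e-04). In all 3 genes both 2-week arrays lay above both 12-week arrays, as the rule for choosing them required. Cyp3a2, a steroid-hydroxylating P450 known as male-biased in adult rats, was at 13.06 and 12.79 against 6.80 and 6.22, 85.2-fold higher. A2m, a protease inhibitor that the rat makes in fetal life and inflammation, was at 12.81 and 12.02 against 6.53 and 6.70 (55.8-fold), and the lipoxygenase Alox15 at 12.01 and 12.01 against 5.77 and 6.60 (56.5-fold).

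The rest of the 12 largest rises were Lpl, Igfbp2, Qpct, Abcd2, Slc22a8 and Cyp17a1. Lipoprotein lipase (Lpl), which releases fatty acids from blood triglyceride and is low in adult liver, stood at 11.20 and 11.84 at 2 weeks and 5.90 and 6.02 at 12 weeks, a 47.1-fold rise. Igfbp2, an insulin-like growth factor binding protein, rose 43.7-fold from 7.14 and 6.72 at 12 weeks to 12.26 and 12.50 at 2 weeks. Cyp17a1 makes androgen precursors and is active in the liver of young rats. It read 12.89 and 13.03 against 8.26 and 8.41 (24.7-fold). Qpct, which forms pyroglutamate at the ends of peptides, rose 34-fold, Abcd2, a peroxisomal fatty acid transporter, 32.5-fold, and Slc22a8, an organic anion transporter, 29.1-fold. The 12-week mean of Qpct was 4.61, low on the scale, so the size of its fold is uncertain.

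The 12 largest falls came from several roles. A1bg, a plasma protein known as female-biased in rat liver, stood at 5.40 and 5.54 at 2 weeks and 11.85 and 12.66 at 12 weeks, 110-fold lower at 2 weeks (adjusted p = 1.0e-04). Thrsp (Spot 14), a driver of fat synthesis that responds to thyroid hormone and carbohydrate, stood at 7.20 and 5.97 against 12.42 and 13.45, 81.3-fold lower. Rup2, of a family of rat urinary proteins, was at 5.12 and 5.30 against 10.64 and 12.52, 82.9-fold lower, and its 12-week arrays lay nearly 2 units apart. Hamp encodes hepcidin, the hormone that lowers iron uptake from the gut and iron release from stores. It stood at 6.28 and 6.27 against 12.04 and 11.56, 46.1-fold lower (-5.53 ± 0.62, adjusted p = 0.00435). Cyp7a1, which takes the limiting first step from cholesterol to bile acids, was at 6.58 and 7.53 against 11.21 and 12.20, 25.2-fold lower (adjusted p = 0.00417).

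The desaturase Scd, which makes monounsaturated fatty acids, fell 25.9-fold, from 9.95 and 11.42 to 6.55 and 5.44. Mettl7b, a methyltransferase of lipid droplets and the endoplasmic reticulum, fell 97-fold and the UDP-glucuronosyltransferase Ugt2a3 73.3-fold. Slc41a2, a magnesium transporter, fell 57.4-fold, and Cyp3a9, a P450 of the same family as Cyp3a2, 51-fold. The 2-week mean of Cyp3a9 was 4.86, low on the scale, so the size of its fold is uncertain. Sult2a1, which sulfates steroids and bile acids, fell 18.5-fold with 2-week arrays at 8.56 and 6.95. Cbln3, a secreted protein of the C1q family, fell 13.2-fold. None of these 24 largest changes overlapped between ages, as the rule for choosing them required, and all 24 calls held without each of the 4 arrays in turn. The plot of the 24 genes by array shows every level, with the 4-week arrays in the middle of each panel.

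**Figure D2:**
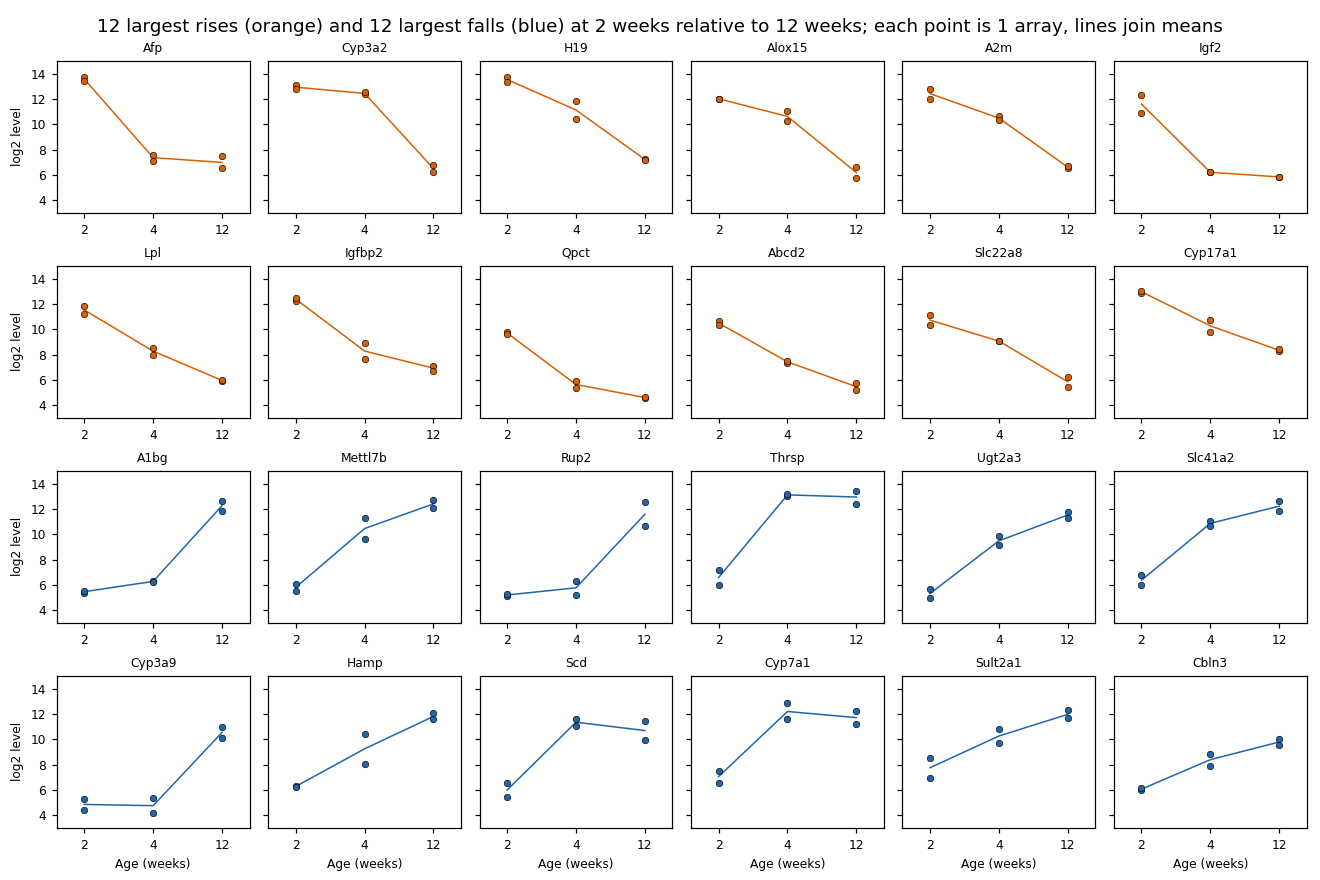
RMA log2 level (vertical axis) on each array of liver aged 2, 4 and 12 weeks (horizontal axis, ages drawn at equal steps) for the 12 genes that rose most and the 12 that fell most at 2 weeks relative to 12 weeks, 1 panel a gene. Each point is 1 array, 2 an age, and the line joins the means. Afp and Igf2 are near their 12-week level at 4 weeks, while Cyp3a2 and A1bg are near their 2-week level.

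Beyond Afp, the fetal list was mostly uncalled. Of 14 measured fetal and oncofetal genes 3 rose and 0 fell (21.4% called, against 2.23% of all genes), with a median difference of 0.55. Without 2-week array 1 the median was 0.12, with 9 above and 5 below 0, and 1 gene was called. Glypican 3 (Gpc3), a cell-surface proteoglycan used as a liver tumour marker, read 7.58 and 7.23 at 2 weeks and 5.64 and 5.83 at 12 weeks, 3.18-fold higher. Igf2bp1, an RNA-binding protein of fetal tissue, read 7.33 and 6.64 against 5.21 and 5.03, 3.64-fold higher. Dlk1, a marker of fetal liver progenitors, read 7.04 and 6.54 against 6.60 and 6.26 and was not called. The calls of Gpc3 and Igf2bp1 were lost without 2-week array 1 (adjusted p from 0.1 to 0.119). For Igf2bp1 the call was lost without 12-week array 2 (adjusted p = 0.0526).

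Imprinted genes are expressed from 1 parental copy and many act on fetal growth. Of 18 measured imprinted genes 5 rose and 0 fell, and the median difference was 0.66 (0.42 without 2-week array 1). Beside H19 and Igf2, these were Meg3, Grb10 and Mest. Meg3, a long non-coding RNA, stood at 10.52 and 9.33 at 2 weeks and 6.71 and 6.09 at 12 weeks, 11.5-fold higher. Grb10, an adaptor that dampens insulin and growth factor receptors, stood at 10.12 and 8.71 against 6.04 and 5.93, 10.8-fold higher. Mest, an enzyme of the hydrolase family, stood at 10.60 and 8.57 against 6.26 and 6.52, 9.18-fold higher, the 2-week arrays lying 2.03 apart. In all 5 genes array 1 of the 2-week pair gave the higher level. The call of Mest was lost without 2-week array 1 (adjusted p = 0.054). For Mest the call was lost without 12-week array 1 (adjusted p = 0.11). The call of Mest was lost without 12-week array 2 (adjusted p = 0.0614). Meg3 and Grb10 kept their calls without each array.

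Growth hormone drives growth after weaning through its receptor Ghr and the liver hormone Igf1. Of 18 genes of this axis 1 rose (Igfbp2) and 2 fell (Prlr and Lifr), with a median difference of 0.02. The prolactin receptor Prlr, known as female-biased in rat liver, stood at 8.13 and 7.33 at 2 weeks and 10.20 and 9.86 at 12 weeks, 4.92-fold lower. Lifr, the receptor of leukaemia inhibitory factor, stood at 10.53 and 10.53 against 12.05 and 12.22, 3.04-fold lower, with 4-week arrays at 9.93 and 9.81. Ghr read 10.63 and 9.64 against 11.40 and 11.69 with no overlap, a difference of -1.41 ± 0.32 that was not called (adjusted p = 0.0799). Igf1 read 12.42 and 11.88 against 12.53 and 12.95, also without overlap and not called. Igfbp1, a binding protein of fasting and stress, read 12.12 and 13.21 against 11.47 and 7.95, a difference of 2.95 ± 0.99 that was not called (adjusted p = 0.258). Only array 2 of 12 weeks was low in Igfbp1, and the difference was 4.71 without 12-week array 1 and 1.19 without 12-week array 2. The call of Lifr was lost without 2-week array 1 (adjusted p = 0.082). For Lifr the call was lost without 2-week array 2 (adjusted p = 0.0564). Prlr kept its call without each array.

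Thyroid hormone rises in the pup in the weeks before weaning. Of 10 genes of that axis 1 rose and 3 fell, Thrsp among them. The thyroxine carrier Serpina7, a blood protein of the young rat, stood at 11.52 and 11.08 at 2 weeks and 8.69 and 5.97 at 12 weeks, a difference of 3.97 ± 0.81 (adjusted p = 0.0485). Without 12-week array 2, which was the lowest, the difference was 2.61. Slc16a10, a transporter of aromatic amino acids and thyroid hormone, stood at 7.69 and 8.34 against 10.38 and 10.02, 4.55-fold lower. Malic enzyme (Me1), which supplies NADPH for fat synthesis, stood at 7.16 and 7.57 against 10.11 and 9.30, 5.09-fold lower. Dio1, which activates thyroxine, read 10.38 and 8.22 against 9.61 and 10.05 and its receptor gene Thrb 8.57 and 8.64 against 8.84 and 8.67, and neither was called. The calls of Serpina7, Slc16a10 and Me1 were lost without 2-week array 1 (adjusted p from 0.0511 to 0.282). For Serpina7 the call was lost without 2-week array 2 (adjusted p = 0.151). The call of Serpina7 was lost without 12-week array 2 (adjusted p = 0.0629).

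The mitosis list held the largest share of called genes of the 44 lists described, but most of its members were low in level. Only 2 of them passed a filter at the median level over all genes, and 1 of these was called in that fit. The list's median level was 7.29 and 6.89 at 2 weeks and 4.97 and 5.34 at 12 weeks. Of 29 measured mitosis genes 22 rose and 0 fell, against 1.29% of all genes called higher. All 29 differences were above 0 in limma, also after median centring, 75th percentile scaling and quantile normalization, and their median was 1.93. Without 2-week array 1 the count was 7, without 12-week array 1 it was 15, and in a fit on the 4 arrays compared alone it was 13. Cyclin B1 (Ccnb1), which activates Cdk1 for entry into mitosis, stood at 8.19 and 8.01 at 2 weeks and 5.21 and 5.22 at 12 weeks, 7.4-fold higher (adjusted p = 0.00248). Cdk1 itself stood at 7.23 and 6.82 against 4.79 and 4.85, 4.62-fold higher. Cdc20, which turns on the ligase that ends mitosis, stood at 7.98 and 7.70 against 5.55 and 5.88, 4.37-fold higher. In these 3 genes the arrays of an age agreed within 0.41 and the ages were at least 1.82 apart. Markers of red cell precursors, which also divide, were higher too (3 of 17 called, median level 7.25 and 6.41 against 6.05 and 5.76), and their part in the mitosis calls was not tested.

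Pbk, a kinase of dividing cells, rose 8.32-fold and Ect2, an exchange factor of the cleavage furrow, 6.59-fold. Nusap1, which bundles spindle microtubules, rose 6.4-fold. Nuf2, a subunit of the kinetochore complex that holds microtubules, read 7.29 and 6.64 at 2 weeks and 3.78 and 4.59 at 12 weeks (6.88-fold). Cyclin A2 (Ccna2), of S phase and early mitosis, read 8.27 and 7.21 against 4.79 and 5.33 (6.39-fold), the 2-week arrays differing by 1.06. The 4-week levels lay between, at 6.54 and 7.32 for Ccnb1 and 5.67 and 5.99 for Cdk1. The calls of Nuf2 and Ccna2 were lost without 2-week array 1 (adjusted p from 0.065 to 0.0707). For Ccna2 the call was lost without 12-week array 1 (adjusted p = 0.0533). Pbk, Ect2 and Nusap1 kept their calls without each array.

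DNA replication genes were higher with fewer calls. Of 28 measured 6 rose and 0 fell, all 28 differences were above 0 (also after the 3 other scalings, and 26 without 12-week array 1), and the median was 1.00. Topoisomerase Top2a, which untangles sister chromatids, stood at 9.18 and 8.67 at 2 weeks and 5.38 and 6.49 at 12 weeks, 7.96-fold higher. Rrm2, the regulated subunit of ribonucleotide reductase, stood at 9.37 and 8.04 against 5.40 and 6.23, 7.42-fold higher. Both genes were lowest on 12-week array 1. Hells, a chromatin remodeller, rose 5.56-fold, Mcm10, which loads the replication fork, 4.67-fold, Uhrf1, which copies DNA methylation, 4.3-fold, and Mcm6, of the replicative helicase, 3.85-fold. Its partners Mcm2 (9.26 and 7.87 against 6.98 and 7.64) and Mcm5 (8.71 and 7.18 against 5.84 and 6.57) did not overlap between ages but were not called. Without 2-week array 1 the count of calls was 0 and the median 0.57, and without 12-week array 1 the count was 1. The calls of Top2a, Rrm2, Hells, Mcm10, Uhrf1 and Mcm6 were lost without 2-week array 1 (adjusted p from 0.0638 to 0.225). For Hells and Mcm10 the calls were lost without 2-week array 2 (adjusted p from 0.0762 to 0.0799). The calls of Rrm2, Hells, Mcm10, Uhrf1 and Mcm6 were lost without 12-week array 1 (adjusted p from 0.0538 to 0.186). For Uhrf1 and Mcm6 the calls were lost without 12-week array 2 (adjusted p from 0.0533 to 0.0549).

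Of 17 genes that set entry into the cycle from G1, 3 rose and 0 fell. Cyclin D1 (Ccnd1), which carries growth signals to the cycle, stood at 9.69 and 9.74 at 2 weeks and 7.12 and 7.92 at 12 weeks, 4.57-fold higher. Cyclin E1 (Ccne1) stood at 7.59 and 7.16 against 5.33 and 5.58 and cyclin E2 (Ccne2) at 6.90 and 5.98 against 4.63 and 4.91, 3.78-fold and 3.19-fold higher. These cyclins start DNA replication with Cdk2. The ages did not overlap in any of the 3, which adds no support since the 3 were picked as called. The calls of Ccnd1, Ccne1 and Ccne2 were lost without 2-week array 1 (adjusted p from 0.0638 to 0.259). For Ccne2 the call was lost without 12-week array 1 (adjusted p = 0.164). The call of Ccne2 was lost without 12-week array 2 (adjusted p = 0.0668).

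Since 22 of 29 mitosis genes rose, the promoters of the list were read for 2 short motifs known from cell cycle genes. The first is TTTGAA, the core of the cell cycle homology region, and the second is the CCAAT box. Both were searched on both strands from 250 bases before to 50 after the start of the gene, and the 2 motifs can share at most 1 letter. RefSeq promoters (GRCr8) were given for 23 of the 29 genes. TTTGAA occurred in 15 of the 23 (65.2%) against 15.2% of 11972 promoters of tested genes, and CCAAT in 15 (65.2%) against 38.3%. Both occurred in 11 (47.8%) against 6.3%. Among 25 promoters of the DNA replication list TTTGAA occurred in 2 (8%) and both motifs in 1 (4%), while CCAAT occurred in 15 (60%). CCAAT was as common in the antigen presentation list (66.7% of 21 promoters) and the lipogenesis list (75% of 16) as in the mitosis list. Shown are 5 called mitosis genes that hold both motifs, of which Ccnb2 and Plk1 were chosen after their values were seen, from 150 bases before to 20 after the start. Capitals mark TTTGAA or its complement TTCAAA, and CCAAT or its complement ATTGG.
Cdk1: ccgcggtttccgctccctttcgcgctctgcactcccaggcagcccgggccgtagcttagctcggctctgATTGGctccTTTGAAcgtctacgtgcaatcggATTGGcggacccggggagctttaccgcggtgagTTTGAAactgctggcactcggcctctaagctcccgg
Ccnb2: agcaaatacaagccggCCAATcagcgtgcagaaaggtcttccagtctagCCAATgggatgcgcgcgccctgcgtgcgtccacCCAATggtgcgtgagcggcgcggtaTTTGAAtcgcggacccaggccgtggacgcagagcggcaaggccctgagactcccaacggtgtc
Plk1: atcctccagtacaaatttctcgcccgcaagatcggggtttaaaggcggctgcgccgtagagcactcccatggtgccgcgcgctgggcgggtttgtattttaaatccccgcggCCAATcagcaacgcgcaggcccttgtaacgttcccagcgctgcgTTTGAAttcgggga
Cdc20: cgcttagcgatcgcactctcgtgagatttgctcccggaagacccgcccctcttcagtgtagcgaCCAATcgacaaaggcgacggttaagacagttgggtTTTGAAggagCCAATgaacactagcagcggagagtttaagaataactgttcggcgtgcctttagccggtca
Nusap1: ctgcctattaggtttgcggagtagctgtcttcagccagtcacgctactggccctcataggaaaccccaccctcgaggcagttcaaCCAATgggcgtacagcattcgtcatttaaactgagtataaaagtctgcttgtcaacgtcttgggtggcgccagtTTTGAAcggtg
The stretches lie at chr20:19265143-19265312 (plus strand) for Cdk1, chr8:79981639-79981808 (minus strand) for Ccnb2, chr1:186147508-186147677 (plus strand) for Plk1, chr5:137255780-137255949 (minus strand) for Cdc20 and chr3:127057145-127057314 (plus strand) for Nusap1. Counting the last base before the gene start as -1, the TTTGAA of Ccnb2 starts at -43 and its CCAAT boxes at -68, -101 and -134. In Plk1 and Nusap1 TTTGAA starts at bases 7 and 10 of the transcript. Cyclin B2 (Ccnb2) read 8.33 and 8.03 at 2 weeks and 6.14 and 6.37 at 12 weeks and rose 3.8-fold. Polo-like kinase 1 (Plk1), which runs centrosomes and cytokinesis, read 8.25 and 7.98 against 5.14 and 6.22 and rose 5.41-fold. A match of letters does not show that a factor bound there. The calls of Ccnb2 and Plk1 were lost without 2-week array 1 (adjusted p from 0.0912 to 0.102).

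Fat synthesis genes were lower at 2 weeks. Of 21 measured lipogenesis genes 6 fell and 0 rose, and the median difference was -1.70. Without 2-week array 2 or 12-week array 2 the median was -1.12 and the count 4. Thrsp, Scd and Me1 are given above. Acacb, the acetyl-CoA carboxylase that also restrains mitochondrial fat uptake, stood at 5.99 and 5.59 at 2 weeks and 9.25 and 8.59 at 12 weeks, 8.74-fold lower. Acss2, which makes acetyl-CoA from acetate, stood at 8.68 and 7.12 against 10.51 and 11.67 (9.12-fold), and Acly, which makes it from citrate, at 9.43 and 8.03 against 11.01 and 11.34 (5.45-fold). Fatty acid synthase (Fasn) stood at 8.99 and 6.90 against 10.40 and 11.26 with no overlap, a difference of -2.88 ± 0.64 that was not called (adjusted p = 0.0673). Its supplier Acaca stood at 8.25 and 7.08 against 8.78 and 9.95 and was not called. In Acss2, Acly, Fasn and Acaca array 1 of 2 weeks was over 1 unit above array 2. The calls of Acss2 and Acly were lost without 2-week array 2 (adjusted p from 0.0809 to 0.128). For Acly the call was lost without 12-week array 1 (adjusted p = 0.0958). The calls of Acss2 and Acly were lost without 12-week array 2 (adjusted p from 0.0644 to 0.0874). Acacb kept its call without each array.

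Cholesterol synthesis split the 2-week arrays in the same way. Of 20 measured genes 2 fell and 0 rose, while all 20 differences were below 0, also after the 3 other scalings, with a median of -1.18. Dhcr7, a late enzyme of the pathway, stood at 9.53 and 7.63 at 2 weeks and 11.31 and 11.56 at 12 weeks, 7.23-fold lower, and the sterol reductase Tm7sf2 at 9.81 and 8.80 against 11.13 and 12.02, 4.81-fold lower. Sqle, an early oxygen-using step, stood at 10.47 and 7.08 against 9.28 and 10.88, Fdps, which joins isoprene units, at 11.85 and 9.10 against 11.96 and 12.21, and Fdft1, which makes squalene, at 11.37 on array 1 and 2.37 lower on array 2 against 10.89 and 11.20. In these 3 genes array 2 of 2 weeks lay below both 12-week arrays by more than 1 unit, while array 1 lay near them. Without 2-week array 2 the list median was -0.46 and 5 differences were above 0, and without 2-week array 1 it was -2.06 with 4 calls. Without 12-week array 2 the median was -0.75 and the count of calls 0. The call of Tm7sf2 was lost without 2-week array 2 (adjusted p = 0.119). For Dhcr7 the call was lost without 12-week array 1 (adjusted p = 0.0974). The calls of Dhcr7 and Tm7sf2 were lost without 12-week array 2 (adjusted p from 0.0682 to 0.0789).

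Genes that burn fat were mostly above 0 with few calls. Of 30 measured 3 rose and 1 fell, with a median difference of 0.61. The differences were above 0 in 22 genes and below in 8. At an unadjusted p under 0.05 limma gave 14 higher and 2 lower. Abcd2 is given above. Vnn1, a pantetheinase that responds to the fatty acid receptor PPAR-alpha, stood at 10.93 and 11.80 at 2 weeks and 7.26 and 7.52 at 12 weeks, 15.8-fold higher. Acat1, of ketone body metabolism, stood at 11.98 and 11.59 against 9.58 and 10.51, 3.34-fold higher. The fatty acid importer Cd36 stood at 8.86 and 8.46 against 10.16 and 10.91, 3.67-fold lower. Cpt1a, the gate of mitochondrial fat oxidation, stood at 11.27 and 12.39 against 10.19 and 9.96 with no overlap, a difference of 1.76 ± 0.41 that was not called (adjusted p = 0.0877). Bdh1, which makes the ketone body hydroxybutyrate, stood at 11.85 and 11.15 against 9.91 and 10.77, also without overlap and not called. Cpt2, the partner of Cpt1a, stood at 9.25 and 9.83 against 9.30 and 10.16 and overlapped. The calls of Acat1 and Cd36 were lost without 2-week array 1 (adjusted p from 0.122 to 0.269). For Acat1 and Cd36 the calls were lost without 2-week array 2 (adjusted p from 0.0979 to 0.166). The call of Acat1 was lost without 12-week array 1 (adjusted p = 0.108). For Cd36 the call was lost without 12-week array 2 (adjusted p = 0.0759). Vnn1 kept its call without each array.

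Other genes of fat and energy metabolism, chosen after their values were seen, lay outside the lists. Acsm3, a mitochondrial ligase of medium-chain fatty acids, stood at 9.62 and 9.71 at 2 weeks and 5.33 and 5.39 at 12 weeks, 19.8-fold higher. Slc25a4, the heart-type carrier that swaps ADP for ATP across the mitochondrial membrane, stood at 10.99 and 11.65 against 6.37 and 7.71, 19.4-fold higher. Ldhb, the lactate-using dehydrogenase subunit, stood at 9.09 and 10.68 against 6.19 and 6.11, 13.3-fold higher. Fabp7, a fatty acid binding protein best known from brain, stood at 12.84 and 13.02 against 9.14 and 9.51, 12.2-fold higher. The glycerol channel Aqp7 stood at 8.94 and 8.62 against 5.04 and 5.94 and the acyltransferase Gpat3 at 8.54 and 10.52 against 5.15 and 6.65, 9.76-fold and 12.3-fold higher. Elovl2, which lengthens polyunsaturated fatty acids, stood at 11.54 and 11.72 against 8.81 and 9.84, 4.93-fold higher. The calls of Fabp7, Aqp7 and Elovl2 were lost without 2-week array 1 (adjusted p from 0.0638 to 0.196). For Fabp7, Gpat3 and Elovl2 the calls were lost without 2-week array 2 (adjusted p from 0.0635 to 0.18). The calls of Fabp7, Gpat3 and Elovl2 were lost without 12-week array 1 (adjusted p from 0.0531 to 0.154). Acsm3, Slc25a4 and Ldhb kept their calls without each array.

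Apolipoproteins and lipases showed 1 rise (Lpl) and 1 fall among 29 measured (6.9% called, against 2.23% of all genes), with a median of 0.06. Without 12-week array 1 there were 3 falls and the median was -0.11. Apoa2, a protein of high-density lipoprotein, stood at 10.30 and 10.38 at 2 weeks and 12.81 and 12.65 at 12 weeks, 5.23-fold lower (adjusted p = 0.00249), and this call held without each array. Hepatic lipase (Lipc), the adult liver's own lipase, stood at 12.12 and 11.69 against 12.23 and 12.48 and was not called. In glucose use and gluconeogenesis 1 of 31 genes rose and 0 fell (3.23% called, against 2.23% of all genes). That gene was serine dehydratase (Sds), which feeds amino acid carbon into glucose, at 8.62 and 10.84 against 6.37 and 6.16, 11-fold higher. The named gluconeogenic enzymes were not called, with Pck1 at 13.31 and 12.62 against 13.29 and 11.71, G6pc1 at 12.62 and 12.19 against 12.85 and 10.91 and Fbp1 at 12.11 and 12.19 against 11.73 and 11.76. Array 2 of 12 weeks was low in Pck1 and G6pc1. The call of Sds was lost without 12-week array 1 (adjusted p = 0.0971). For Sds the call was lost without 12-week array 2 (adjusted p = 0.0752). Apoa2 kept its call without each array.

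Urea cycle and amino acid breakdown gave 1 rise (Sds) and 2 falls among 39 genes (7.69% called, against 2.23% of all genes), and the median was -0.15. Without 2-week array 2 there were 5 falls. Tdo2, which opens the ring of tryptophan, stood at 7.68 and 9.45 at 2 weeks and 11.10 and 11.51 at 12 weeks, 6.68-fold lower. Prodh, which starts proline breakdown, stood at 8.86 and 9.13 against 11.58 and 11.29, 5.42-fold lower. The urea cycle enzymes Cps1 (13.05 and 13.61 against 13.54 and 13.44), Otc (10.85 and 10.03 against 10.57 and 10.47) and Ass1 (12.40 and 13.37 against 13.46 and 12.92) overlapped between ages and were not called. The calls of Tdo2 and Prodh were lost without 2-week array 1 (adjusted p from 0.119 to 0.128). For Prodh the call was lost without 2-week array 2 (adjusted p = 0.0586). The calls of Tdo2 and Prodh were lost without 12-week array 1 (adjusted p from 0.0631 to 0.0986). For Tdo2 the call was lost without 12-week array 2 (adjusted p = 0.0916).

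Bile acid synthesis gave 1 call among 18 genes (5.56%, against 2.23% of all genes), the fall of Cyp7a1, and a median of -0.19. Cyp8b1, which sets the balance of bile acid types, stood at 10.23 and 12.35 at 2 weeks and 11.93 and 11.54 at 12 weeks, and Cyp27a1, of the alternative pathway, at 11.21 and 11.79 against 11.10 and 11.97. Both overlapped between ages. Among 24 hepatocyte transporters 1 rose (Slc22a8) and 3 fell. Slco1a4, an uptake carrier of organic anions, stood at 9.02 and 8.37 against 11.76 and 11.78, 8.43-fold lower. Abcc2, which pumps conjugates into bile, stood at 9.58 and 9.98 against 12.47 and 11.78, 5.06-fold lower, and the drug pump Abcb1a at 7.43 and 7.78 against 8.90 and 9.69, 3.23-fold lower. The main bile salt pump Abcb11 (11.96 and 11.70 against 12.39 and 12.12) and the bile salt uptake carrier Slc10a1 (12.82 and 12.21 against 12.67 and 12.45) were not called. The calls of Abcc2 and Abcb1a were lost without 2-week array 1 (adjusted p from 0.0633 to 0.193). For Abcb1a the call was lost without 2-week array 2 (adjusted p = 0.0734). The call of Abcb1a was lost without 12-week array 2 (adjusted p = 0.0522). Slco1a4 kept its call without each array.

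Cytochrome P450 enzymes oxidise drugs, steroids and fatty acids, and those of 1 subfamily can share array probes, so single members are uncertain. In the Cyp3a family 1 of 5 rose and 1 fell, Cyp3a2 and Cyp3a9, and Cyp3a18 stood at 8.99 and 7.95 at 2 weeks and 10.04 and 9.08 at 12 weeks without a call. In the Cyp2c family 3 of 6 fell. Cyp2c12, the steroid sulfate hydroxylase known as female-specific in adult rats, stood at 9.95 and 9.50 against 13.40 and 13.47, 13.1-fold lower (adjusted p = 1.7e-04). Its 4-week arrays were at 13.42 and 13.51. Cyp2c13 stood at 3.63 and 3.36 against 5.22 and 5.69, 3.89-fold lower and near the bottom of the scale, and Cyp2c22 at 11.70 and 11.46 against 12.74 and 12.72, 2.22-fold lower. Cyp2c11, known as male-specific in adults, stood at 4.49 and 4.57 against 4.73 and 4.49 and was not called. These levels are near the bottom of the scale, while its 4-week arrays were at 7.76 and 8.71. Cyp2c6v1 stood at 11.74 and 11.94 against 12.25 and 12.42 without a call. The calls of Cyp2c13 and Cyp2c22 were lost without 2-week array 1 (adjusted p from 0.0638 to 0.145). For Cyp2c13 and Cyp2c22 the calls were lost without 2-week array 2 (adjusted p from 0.0648 to 0.197). The call of Cyp2c22 was lost without 12-week array 1 (adjusted p = 0.106). For Cyp2c22 the call was lost without 12-week array 2 (adjusted p = 0.0671). Cyp2c12 kept its call without each array.

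Of 35 other P450 genes 4 rose and 5 fell. The phenobarbital-inducible Cyp2b1 stood at 11.54 and 11.04 at 2 weeks and 7.89 and 6.71 at 12 weeks, 15.9-fold higher, and Cyp2a3 at 7.94 and 7.65 against 5.43 and 5.13, 5.72-fold higher. Cyp2d3 stood at 9.25 and 9.50 against 10.97 and 11.46, 3.58-fold lower, Cyp2b3 at 9.23 and 8.92 against 10.37 and 10.93, 2.98-fold lower, and Cyp39a1, an oxysterol hydroxylase, at 8.94 and 8.06 against 10.01 and 10.53, 3.42-fold lower. Cyp2b2 stood at 12.66 and 11.39 against 11.12 and 9.09 and was not called. It is named here after its values were seen. The dioxin-inducible Cyp1a1 (9.56 and 9.39 against 9.85 and 10.01) and Cyp1a2 (11.31 and 12.39 against 12.99 and 12.78) and the testosterone hydroxylase Cyp2a1 (12.33 and 12.27 against 12.57 and 12.27) were not called. The calls of Cyp2b1, Cyp2d3 and Cyp2b3 were lost without 2-week array 1 (adjusted p from 0.08 to 0.13). For Cyp2b1, Cyp2b3 and Cyp39a1 the calls were lost without 2-week array 2 (adjusted p from 0.0635 to 0.151). The call of Cyp39a1 was lost without 12-week array 1 (adjusted p = 0.0526). For Cyp2b1, Cyp2b3 and Cyp39a1 the calls were lost without 12-week array 2 (adjusted p from 0.0585 to 0.0834). Cyp2a3 kept its call without each array.

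Conjugating enzymes make drugs, steroids and bilirubin soluble. Of 14 glucuronosyl- and sulfotransferases 5 fell and 0 rose, with a median of -0.37 (-0.56 without 12-week array 1). Ugt2a3 and Sult2a1 are given above. Sult1c2 stood at 5.68 and 6.05 at 2 weeks and 9.13 and 8.74 at 12 weeks, 8.42-fold lower. Sult2a2 stood at 11.15 and 11.36 against 12.70 and 12.60, 2.63-fold lower, and Sult1b1, which sulfates phenols and thyroid hormone, at 10.82 and 10.25 against 11.97 and 11.67, 2.44-fold lower. Ugt2b1 (12.02 and 11.62 against 11.53 and 11.61) and Ugt2b7 (3.63 and 3.58 against 3.74 and 3.61) were not called. Among 23 glutathione and methyl transferases 1 fell, Gstm2, at 8.60 and 6.96 against 11.22 and 10.25 and 7.77-fold lower, and Gsta1 (a difference of -0.73 ± 0.21), Gsta3 (9.56 and 8.80 against 9.29 and 9.85) and Gsta4 (10.13 and 9.73 against 10.13 and 10.20) were not called. The calls of Sult2a2 and Sult1b1 were lost without 2-week array 1 (adjusted p from 0.0792 to 0.119). For Sult2a2, Sult1b1 and Gstm2 the calls were lost without 2-week array 2 (adjusted p from 0.052 to 0.216). The calls of Sult1b1 and Gstm2 were lost without 12-week array 1 (adjusted p from 0.132 to 0.154). For Sult1b1 the call was lost without 12-week array 2 (adjusted p = 0.0549). Sult1c2 kept its call without each array.

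Carboxylesterases and related hydrolases cleave ester drugs and lipids. Of 13 measured 4 fell and 1 rose, with a median of -0.69 (-1.24 without 12-week array 1). Ces1d stood at 6.88 and 7.38 at 2 weeks and 9.94 and 10.31 at 12 weeks and Ces2a at 8.67 and 9.29 against 11.81 and 12.09, 7.95-fold and 7.84-fold lower. Ces1f stood at 8.46 and 8.35 against 11.08 and 10.98 and Ces1c at 10.14 and 10.40 against 12.11 and 11.74, 6.16-fold and 3.16-fold lower. At 4 weeks the arrays read 9.76 and 9.90 for Ces1d and 11.02 and 10.73 for Ces1f, close to 12 weeks. Ephx2, a hydrolase of epoxy fatty acids, stood at 10.34 and 9.85 against 6.67 and 8.15, 6.43-fold higher, and Ces1e at 10.73 and 10.39 against 10.86 and 11.57 without a call. Ces genes are near-identical neighbours and single members are uncertain. The calls of Ces1c and Ephx2 were lost without 2-week array 1 (adjusted p from 0.0912 to 0.174). For Ephx2 the call was lost without 2-week array 2 (adjusted p = 0.0714). Ces1d, Ces2a and Ces1f kept their calls without each array.

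Secreted and sex-dependent proteins of rat liver gave 5 falls and 1 rise among 12 genes. A1bg, Rup2, Cyp2c12 and Prlr are given above. Akr1b7, an aldose reductase-like enzyme, stood at 7.66 and 7.73 at 2 weeks and 10.11 and 11.50 at 12 weeks, 8.64-fold lower. Hsd11b1, which regenerates active glucocorticoid and is known as male-biased in rat liver, stood at 11.32 and 10.95 against 9.23 and 10.01, 2.86-fold higher. The major urinary protein gene Mup5 read 4.06 and 4.17 against 4.63 and 4.22, near the bottom of the scale. Among 20 acute-phase genes 1 rose (A2m) and 1 fell. C-reactive protein (Crp) stood at 10.64 and 10.26 against 11.83 and 11.71, 2.5-fold lower. Haptoglobin (Hp) stood at 13.43 and 13.47 against 13.20 and 13.35, and the acid glycoprotein Orm1 at 7.21 and 9.94 against 12.37 and 10.82 with a difference of -3.02 ± 0.81 that was not called (adjusted p = 0.134). The calls of Akr1b7, Hsd11b1 and Crp were lost without 2-week array 1 (adjusted p from 0.08 to 0.316). For Akr1b7, Hsd11b1 and Crp the calls were lost without 2-week array 2 (adjusted p from 0.0566 to 0.135). The calls of Hsd11b1 and Crp were lost without 12-week array 1 (adjusted p from 0.0783 to 0.146).

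Iron regulation gave 1 rise and 1 fall among 21 genes (9.52% called, against 2.23% of all genes). Hepcidin fell as given above, while Tfr2 (11.19 and 10.72 at 2 weeks and 11.25 and 11.19 at 12 weeks) and Hfe (7.23 and 7.38 against 6.81 and 8.17), sensors that act on it, were not called. Heme oxygenase (Hmox1), which opens heme and releases its iron, stood at 9.61 and 9.50 against 7.94 and 8.12, 2.88-fold higher (adjusted p = 0.0499). In the list of oxidative, heme and metal stress 2 of 21 rose and 2 fell. The zinc-binding metallothionein Mt2A stood at 12.77 and 13.73 against 10.79 and 11.05, 5.02-fold higher, and Mt1 at 13.56 and 13.92 against 12.50 and 12.28 without a call. Slc39a4, a zinc importer, stood at 6.64 and 6.61 against 8.46 and 8.59, 3.74-fold lower, and the peroxidase Gpx1 at 11.17 and 10.45 against 12.30 and 12.48, 2.99-fold lower. Nqo1, a quinone reductase, stood at 8.29 and 9.66 against 9.54 and 10.25 and was not called. The calls of Hmox1, Mt2A and Slc39a4 were lost without 2-week array 1 (adjusted p from 0.0526 to 0.276). For Hmox1, Mt2A and Gpx1 the calls were lost without 2-week array 2 (adjusted p from 0.1 to 0.233). The calls of Hmox1, Mt2A and Gpx1 were lost without 12-week array 1 (adjusted p from 0.0597 to 0.168). For Hmox1, Mt2A and Gpx1 the calls were lost without 12-week array 2 (adjusted p from 0.0629 to 0.0767).

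Antigen presentation and interferon response genes were mostly lower at 2 weeks. Of 26 measured 7 fell and 0 rose, and the median was -0.85. The differences were below 0 in 24 genes and above in 2, the highest at 0.85. At an unadjusted p under 0.05 limma gave 16 lower and 1 higher. The antiviral GTPases Mx2 (7.69 and 7.58 at 2 weeks and 12.04 and 10.46 at 12 weeks) and Mx1 (5.15 and 5.15 against 8.42 and 7.24) fell 12.2-fold and 6.39-fold. The immunoproteasome subunit Psmb8, which shapes peptides for class I molecules, stood at 7.21 and 7.21 against 9.38 and 9.43, 4.57-fold lower. Tap1, which pumps those peptides to the class I molecules, stood at 7.13 and 7.20 against 9.26 and 8.52, 3.3-fold lower. Ifit3, an interferon-induced antiviral protein, stood at 5.26 and 5.17 against 7.50 and 7.09, 4.23-fold lower. The class II chaperone Cd74 stood at 9.22 and 9.22 against 11.18 and 11.17 and the class II chain RT1-Ba at 6.55 and 6.41 against 7.64 and 7.70, 3.88-fold and 2.28-fold lower. In all 7 genes the 2-week arrays agreed within 0.14 and lay below both 12-week arrays. The 7 were picked as called, so this adds no support. RT1-CE10 (7.03 and 7.13 against 7.93 and 7.84) and RT1-Bb (6.21 and 6.28 against 9.25 and 7.41) did not overlap between ages and were not called. RT1 genes are near-identical copies and single members are uncertain. Lymphocytes carry class II molecules too, and the median level of 14 lymphocyte markers was 5.47 and 5.56 at 2 weeks and 6.01 and 6.71 at 12 weeks, with 0 called in limma and 6 lower at an unadjusted p under 0.05. That of 14 macrophage markers was 9.45 and 9.13 against 9.16 and 9.29, and the part of either cell type in these calls was not tested. The count of calls was 0 without 2-week array 1, 1 without 2-week array 2, 5 without 12-week array 1 and 9 without 12-week array 2. The calls of Mx2, Mx1, Psmb8, Tap1, Ifit3, Cd74 and RT1-Ba were lost without 2-week array 1 (adjusted p from 0.0515 to 0.193). For Mx2, Mx1, Tap1, Ifit3, Cd74 and RT1-Ba the calls were lost without 2-week array 2 (adjusted p from 0.052 to 0.193). The calls of Ifit3 and RT1-Ba were lost without 12-week array 1 (adjusted p from 0.0665 to 0.104). For RT1-Ba the call was lost without 12-week array 2 (adjusted p = 0.0762).

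Further genes with known interferon responses are given singly. Apart from Usp18 they were chosen after their values were seen, so they add no count to the list. Bst2 (tetherin), which holds budding viruses to the cell, stood at 7.97 and 8.71 at 2 weeks and 10.83 and 11.12 at 12 weeks, 6.23-fold lower (adjusted p = 0.0039). Parp9 stood at 7.14 and 6.92 against 9.11 and 9.13 and its partner Dtx3l at 6.87 and 6.88 against 8.40 and 8.76, 4.24-fold and 3.28-fold lower. Irf9, a subunit of the factor that carries the interferon signal to DNA, stood at 7.68 and 7.90 against 9.22 and 9.25, 2.72-fold lower. Dhx58, an RNA sensor, stood at 5.88 and 5.97 against 7.48 and 7.40, 2.86-fold lower. Usp18, which removes the interferon-induced tag Isg15 from proteins, read 4.57 and 5.05 against 8.16 and 7.93, a difference of -3.23 ± 0.72 that was not called (adjusted p = 0.0697). The 4-week arrays were at 9.70 and 9.72 for Bst2 and 8.16 and 8.02 for Parp9. The calls of Dtx3l, Irf9 and Dhx58 were lost without 2-week array 1 (adjusted p from 0.065 to 0.113). For Dhx58 the call was lost without 2-week array 2 (adjusted p = 0.0528). Bst2 and Parp9 kept their calls without each array.

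Promoters of the antigen presentation list were read for the core of the interferon-stimulated response element, GAAA followed after any 2 letters by GAAA, on both strands in the same 300-base window. It occurred in 10 of 21 promoters given (47.6%) against 3.41% of 11972 promoters, and in 0 of the 23 promoters of mitosis genes. Shown are 3 called genes with a match, from 150 bases before to 20 after the start. Capitals mark the match, which lies on the opposite strand in all 3.
Psmb8: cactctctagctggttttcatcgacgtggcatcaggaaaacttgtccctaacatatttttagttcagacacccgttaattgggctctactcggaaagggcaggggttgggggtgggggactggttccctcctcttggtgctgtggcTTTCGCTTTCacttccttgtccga
Tap1: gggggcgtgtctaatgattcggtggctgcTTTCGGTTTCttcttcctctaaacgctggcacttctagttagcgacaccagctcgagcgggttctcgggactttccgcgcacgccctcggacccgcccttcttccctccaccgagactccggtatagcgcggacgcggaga
Ifit3: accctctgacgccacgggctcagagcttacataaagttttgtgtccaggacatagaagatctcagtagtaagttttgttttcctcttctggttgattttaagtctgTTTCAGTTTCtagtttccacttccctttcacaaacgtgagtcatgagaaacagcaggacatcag
The stretches lie at chr20:4657012-4657181 (minus strand) for Psmb8, chr20:4668524-4668693 (minus strand) for Tap1 and chr1:241527176-241527345 (plus strand) for Ifit3. The match starts at -4 in Psmb8, at -121 in Tap1 and at -44 in Ifit3, counted as above. The plot of differences per gene sets this list beside the mitosis list.

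**Figure D3:**
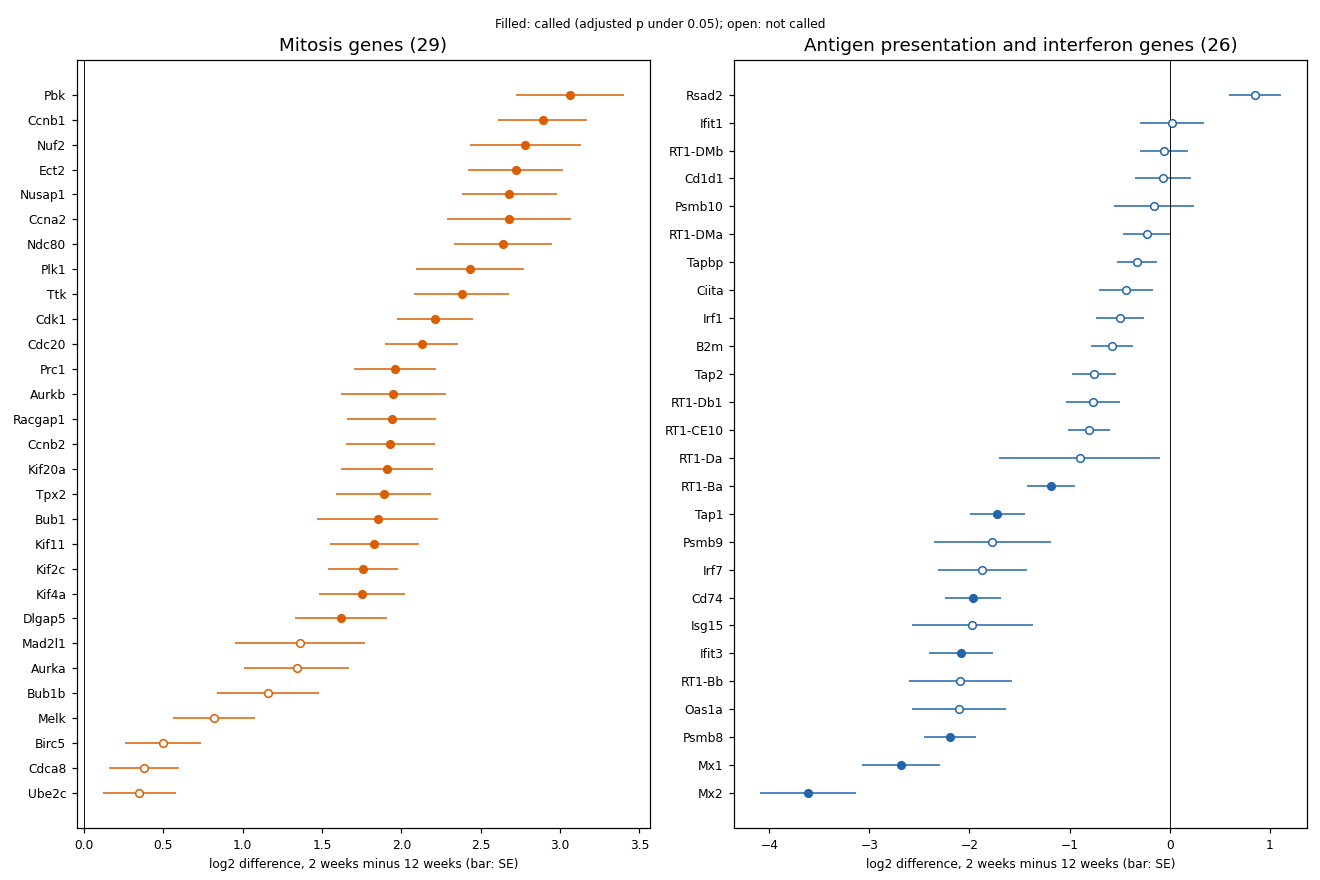
Difference in log2 level (2 weeks minus 12 weeks, horizontal axis) with its SE for each measured gene of the mitosis list (29 genes, left) and of the antigen presentation and interferon list (26 genes, right). Filled points were called in limma and open points were not. All 29 mitosis genes are above 0 and 22 of them are called, while 7 of the 26 genes on the right are called and lower.

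Cells other than hepatocytes were read through marker lists, since whole liver was measured. In whole tissue, fewer cells of a type and less RNA per cell cannot be told apart. Of 17 erythroid genes 3 rose and 0 fell, with 16 above 0 (14 after median centring, 75th percentile scaling or quantile normalization) and a median of 1.17. Ahsp, the chaperone of alpha globin, stood at 6.96 and 5.43 at 2 weeks and 2.95 and 3.15 at 12 weeks, 8.84-fold higher. Alas2, the first enzyme of heme synthesis in red cell precursors, stood at 10.13 and 9.70 against 6.72 and 7.64, 6.66-fold higher, and Slc4a1, the red cell anion exchanger, at 9.11 and 7.91 against 6.60 and 6.39, 4.03-fold higher. The median level of the list was 7.25 and 6.41 on the 2-week arrays against 6.05 and 5.76 on the 12-week arrays. The globin gene Hbb-b1 stood at 10.91 and 10.81 against 7.23 and 9.40 with no overlap, a difference of 2.54 ± 0.63 that was not called (adjusted p = 0.102). The count of calls was 0 without 2-week array 1 (median 0.56) and 7 without 2-week array 2. The calls of Ahsp, Alas2 and Slc4a1 were lost without 2-week array 1 (adjusted p from 0.0717 to 0.157). For Ahsp and Slc4a1 the calls were lost without 12-week array 1 (adjusted p from 0.0757 to 0.111). The calls of Ahsp and Slc4a1 were lost without 12-week array 2 (adjusted p from 0.0637 to 0.0719).

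Of 16 stellate cell and fibroblast markers 3 rose and 0 fell, with a median of 1.20. Reelin (Reln), secreted by stellate cells, stood at 10.04 and 9.33 at 2 weeks and 7.98 and 8.28 at 12 weeks, 2.95-fold higher. The muscle-type filament desmin (Des) stood at 6.51 and 6.38 against 4.88 and 5.08 and hepatocyte growth factor (Hgf) at 8.93 and 8.92 against 7.70 and 7.55, 2.76-fold and 2.47-fold higher. Lrat, which stores vitamin A, stood at 9.60 and 8.79 against 8.30 and 8.69 and was not called. Of 28 matrix genes 4 rose and 0 fell, all 28 differences were above 0 (also after the 3 other scalings, and 26 without 12-week array 2), and the median was 1.05. Col14a1, a fibril-associated collagen, stood at 10.70 and 10.09 against 8.13 and 8.38, 4.41-fold higher, and the collagenase Mmp2 at 9.53 and 8.84 against 7.07 and 7.36, 3.91-fold higher. Pcolce, which helps process procollagen, stood at 9.93 and 9.51 against 7.87 and 7.69, 3.84-fold higher, and the matrix protein Sparc at 12.03 and 11.59 against 10.45 and 9.77, 3.26-fold higher. The fibrillar collagens Col1a1 (9.63 and 9.24 against 8.11 and 7.41), Col1a2 (10.20 and 9.92 against 8.56 and 8.44) and Col3a1 (10.80 and 10.41 against 9.27 and 8.80) did not overlap between 2 and 12 weeks and were not called. The part of stellate cells and fibroblasts in the matrix calls was not tested. The 4-week arrays of the fibrillar collagens lay up to 2.96 apart. The calls of Reln, Des, Hgf, Col14a1, Mmp2, Pcolce and Sparc were lost without 2-week array 1 (adjusted p from 0.065 to 0.316). For Des, Hgf and Sparc the calls were lost without 2-week array 2 (adjusted p from 0.0818 to 0.146). The calls of Reln, Des, Col14a1 and Mmp2 were lost without 12-week array 1 (adjusted p from 0.0616 to 0.148). For Reln, Des and Sparc the calls were lost without 12-week array 2 (adjusted p from 0.0549 to 0.0975).

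Neutrophil granule genes were highest on 1 array. Of 14 measured 0 were called in limma and 8 were higher at an unadjusted p under 0.05, with a median of 0.81. Without 2-week array 2, 5 were called higher (median 1.27), and without 2-week array 1 it was 1 (median 0.40). Ngp, a granule protein of immature neutrophils, read 11.28 and 6.55 at 2 weeks and 4.51 and 4.65 at 12 weeks, a difference of 4.33 ± 1.18 (adjusted p = 0.144) that was 1.97 without 2-week array 1. Mpo read 7.94 and 6.22 against 5.56 and 5.22 and Elane 6.72 and 5.87 against 5.48 and 5.45, again highest on 2-week array 1. Prg2, an eosinophil granule protein, read 10.22 and 7.23 against 5.51 and 4.98, a difference of 3.48 ± 0.77 that was not called (adjusted p = 0.0689). Without 2-week array 1 its difference was 1.99.

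No call was made in the lists of macrophages (14 genes), lymphocytes (14), endothelium (11), bile duct cells (8), adipocytes (7) and pancreas (9). At an unadjusted p under 0.05 limma gave 1 gene in each of these lists except lymphocytes, with 6, all lower. Their median differences were 0.20, -0.67, 0.29, 0.06, 0.03 and 0.10. The T cell receptor chain gene Cd3d stood at 4.32 and 4.39 at 2 weeks and 5.35 and 5.29 at 12 weeks, Cd3e at 4.77 and 5.24 against 5.48 and 6.04 and Cd3g at 4.82 and 5.06 against 4.70 and 6.85. In Cd3d and Cd3e both 2-week arrays were below both 12-week arrays. The macrophage genes Cd68 (9.61 and 9.36 against 10.05 and 9.63), Adgre1 (8.20 and 7.68 against 7.85 and 8.16) and Cd163 (10.28 and 10.12 against 10.08 and 9.71) and the endothelial genes Pecam1 (8.70 and 8.27 against 8.38 and 7.99), Lyve1 (10.55 and 10.42 against 10.42 and 10.19) and Kdr (means of 10.25 against 10.31) were close at both ages. Bile duct keratins Krt19 (8.19 and 6.41 against 6.37 and 6.02) and Krt7 (5.77 and 5.39 against 5.82 and 5.34) and Epcam (6.95 and 6.78 against 5.55 and 7.90) were not called, Epcam reading both lowest and highest at 12 weeks. The adipocyte hormone genes Adipoq (4.74 and 4.86 against 4.85 and 4.66) and Lep (5.42 and 5.37 against 5.58 and 5.42) stood alike at both ages. So did the pancreatic enzymes Prss1 (4.81 and 5.30 against 5.55 and 4.96) and Cela1 (6.43 and 6.77 against 6.57 and 6.42), while Cpa1 read 4.89 and 4.31 against 4.95 and 5.85. Fabp4, of fat cells and capillaries, read 7.26 and 6.63 against 4.55 and 5.38 and was not called.

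**Figure D4:**
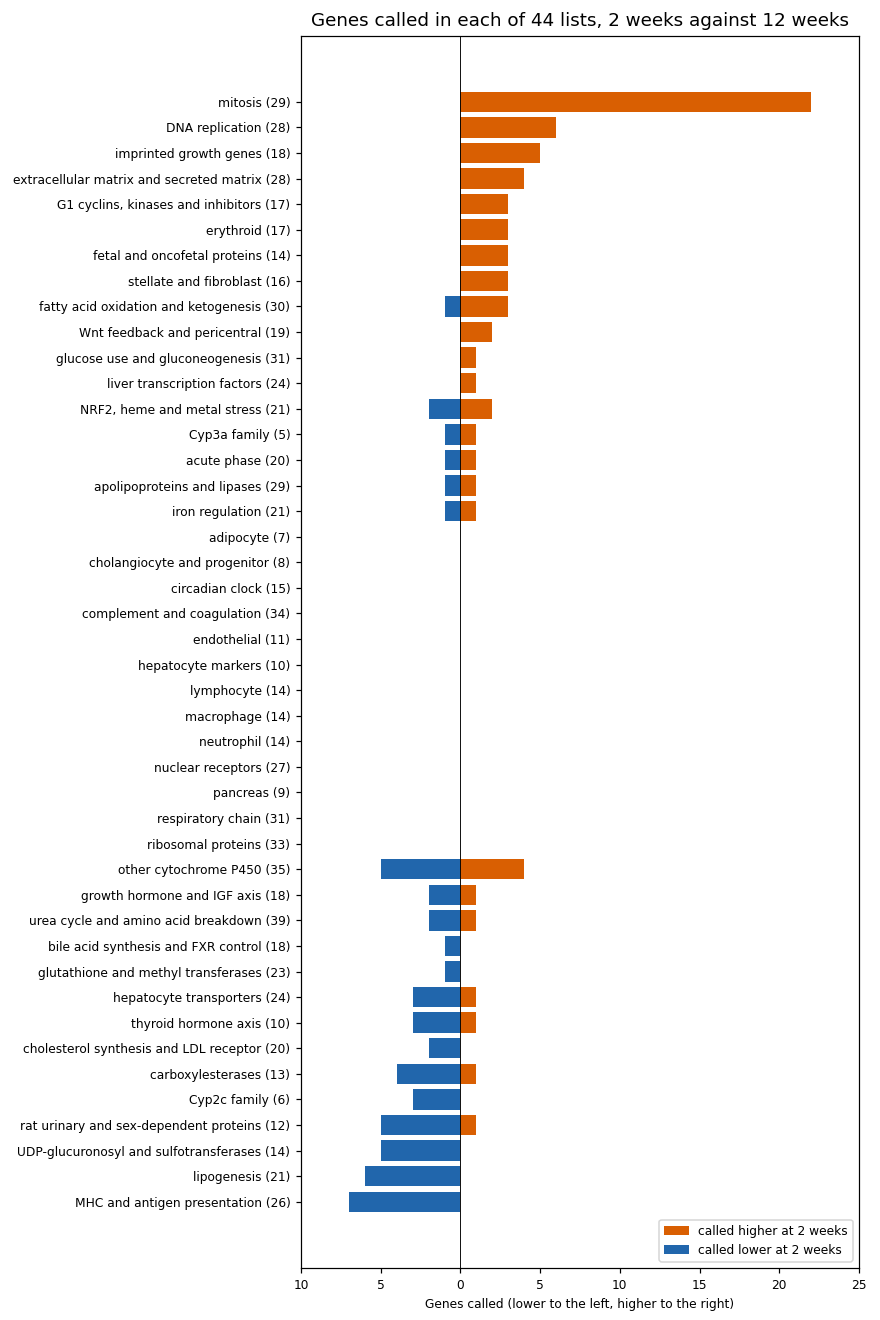
Number of genes called higher (orange, to the right) and lower (blue, to the left) at 2 weeks relative to 12 weeks in each of the 44 gene lists, with the number of measured genes in brackets (horizontal axis, genes called in limma at adjusted p under 0.05). Mitosis has 22 of 29 genes called higher, and 13 lists have no call.

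Transcription regulators were mostly uncalled. Of 24 liver transcription factors 1 rose and 0 fell (4.17% called, against 2.23% of all genes). Foxa3, a forkhead factor of hepatocytes, stood at 9.43 and 9.41 at 2 weeks and 6.91 and 7.65 at 12 weeks, 4.41-fold higher, while its relatives Foxa1 (6.77 and 6.82 against 7.16 and 7.01) and Foxa2 (7.02 and 7.33 against 7.60 and 8.07) and the master factor Hnf4a (11.49 and 11.57 against 11.62 and 11.62) were not called. Of 27 nuclear receptors 0 were called in limma, with 2 higher and 5 lower at an unadjusted p under 0.05. The drug sensors Nr1i3 (7.93 and 8.04 against 8.29 and 7.62) and Nr1i2 (means of 10.29 against 10.34) and the bile acid sensor Nr1h4 (10.10 and 9.36 against 9.11 and 10.80) overlapped between ages. Of 15 clock genes 0 were called, with 0 higher and 1 lower at an unadjusted p under 0.05. Bmal1 read 8.04 and 8.39 against 8.78 and 7.10, Clock 8.61 and 8.53 against 9.23 and 8.62 and Npas2 6.44 and 6.62 against 9.30 and 5.62, the 12-week arrays differing by up to 3.68. Of 19 Wnt-related genes 2 rose and 0 fell, a count that changed when any 1 array was left out. Without 2-week array 2, 0 were called higher and 3 lower (Cyp1a2, Oat and Slc1a2, the last pair named after their values were seen), and without each of the other arrays 0 were called. The stem cell receptor Lgr5 stood at 6.93 and 6.74 against 5.34 and 5.16 and its ligand Rspo3, an enhancer of Wnt signals, at 8.63 and 8.23 against 7.05 and 7.10, 3-fold and 2.56-fold higher, and both calls were lost after median centring. Axin2 (a difference of 0.76 ± 0.34) and Tbx3 (7.24 and 8.18 against 7.26 and 7.71) were not called. The calls of Foxa3, Lgr5 and Rspo3 were lost without 2-week array 1 (adjusted p from 0.0754 to 0.282). For Foxa3, Lgr5 and Rspo3 the calls were lost without 2-week array 2 (adjusted p from 0.05 to 0.127). The calls of Lgr5 and Rspo3 were lost without 12-week array 1 (adjusted p from 0.0971 to 0.121). For Lgr5 and Rspo3 the calls were lost without 12-week array 2 (adjusted p from 0.0709 to 0.0831).

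Housekeeping and plasma protein lists showed few or no calls. Of 34 complement and coagulation genes 0 were called in limma, with 2 higher and 1 lower at an unadjusted p under 0.05, and C3 (13.64 and 13.48 at 2 weeks and 13.68 and 13.61 at 12 weeks), C6 (11.16 and 10.51 against 11.64 and 11.73) and C8a (12.38 and 12.01 against 12.04 and 12.39) are examples. Of 33 cytosolic ribosomal protein genes 0 were called, with 2 higher at an unadjusted p under 0.05. All 33 differences were above 0 with a median of 0.43, 31 after median centring or 75th percentile scaling, 32 after quantile normalization, and 20 without 12-week array 1 (median 0.12). Rpl3 stood at 10.21 and 9.65 against 8.85 and 9.36, Rpl4 at means of 11.85 against 11.50 and Rpl5 at 12.32 and 12.08 against 11.92 and 11.99. Of 31 respiratory chain genes 0 were called and 0 had an unadjusted p under 0.05, with a median of 0.26. That median was -0.03 without 12-week array 1 (19 of 31 below 0), 0.09 without 2-week array 2 and 0.49 without 12-week array 2. Ndufa1 stood at 8.31 and 8.27 against 7.80 and 7.98, Ndufa4 at 11.71 and 12.00 against 11.11 and 12.02 and Ndufa9 at 10.12 and 10.24 against 9.20 and 10.28. In Ndufa4 and Ndufa9 12-week array 1 was the low one.

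Some of the largest uncalled differences rested on arrays that disagreed. Others did not, such as Usp18, given above, whose ages did not overlap. The glucuronosyltransferase probe set named Ugt2b read 4.48 and 4.16 at 2 weeks and 4.00 and 11.65 at 12 weeks, a difference of -3.51 ± 1.89 (adjusted p = 0.591), and without 12-week array 2 it was 0.31. The major histocompatibility gene RT1-N2 read 6.15 and 5.90 against 11.59 and 6.02, high on 12-week array 1 alone, and without that array its difference was 0.01 in place of -2.78. Bex4 read 5.73 and 7.29 against 3.44 and 3.88, a difference of 2.85 ± 0.74 (adjusted p = 0.121). Ugt2b, RT1-N2 and Bex4 are described by their levels and not as age differences.

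The 4-week liver gave levels at an age between the others. Between 2 and 4 weeks 66 genes were called (0.455% of 14511), 22 higher at 2 weeks (0.152%) and 44 lower (0.303%), and 1050 had an unadjusted p under 0.05. The count was 46 without 2-week array 1, 33 without 2-week array 2, 30 without 4-week array 1 and 26 without 4-week array 2. Both comparisons share the 2-week arrays, so each gene's own values are given side by side. Afp stood at 7.60 and 7.13 at 4 weeks, near its 12-week arrays, and differed from 2 weeks by 6.21 ± 0.33 (adjusted p = 6.7e-04). Igf2 stood at 6.20 and 6.22 at 4 weeks (5.39 ± 0.39, adjusted p = 0.00144). At 4 weeks both lay near their 12-week arrays, whereas H19, encoded beside Igf2, stood at 11.80 and 10.45, between its levels at 2 and 12 weeks.

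Several genes of fat and bile acid synthesis stood at their 12-week level by 4 weeks. Thrsp was at 13.03 and 13.18 at 4 weeks (-6.52 ± 0.44, adjusted p = 0.00117) against 12.42 and 13.45 at 12 weeks. Scd was at 11.07 and 11.62 (-5.36 ± 0.51, adjusted p = 0.00406) and Cyp7a1 at 11.56 and 12.82 (-5.14 ± 0.52, adjusted p = 0.00512). Cyp2c12 (-3.74 ± 0.23, adjusted p = 8.5e-04) and Slco1a4 (-3.09 ± 0.28, adjusted p = 0.00326) were called lower at 2 weeks as well. Ces2a was at 11.88 and 12.09 (-3.01 ± 0.27, adjusted p = 0.00326). Cyp2c11 was called between 2 and 4 weeks (-3.70 ± 0.32, adjusted p = 0.00322). It read alike at 2 and 12 weeks, but near the bottom of the scale at both ages. Between 2 and 4 weeks, the call of Scd was lost without 4-week array 2 (adjusted p = 0.0521). Thrsp, Cyp7a1, Cyp2c12, Slco1a4, Ces2a and Cyp2c11 kept their calls without each array.

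Other genes kept a level near that of 2 weeks at 4 weeks. Cyp3a2 stood at 12.36 and 12.51 at 4 weeks against 13.06 and 12.79 at 2 weeks and 6.80 and 6.22 at 12 weeks. A1bg stood at 6.29 and 6.27, Rup2 at 5.20 and 6.35 and Cyp3a9 at 4.17 and 5.35 at 4 weeks, far below their 12-week arrays, and none of these 4 genes was called between 2 and 4 weeks. These include enzymes and secreted proteins known as sex-dependent in adult rats. Lpl (8.56 and 7.99), Igfbp2 (7.68 and 8.88) and Mettl7b (9.63 and 11.27) lay between and were called between 2 and 4 weeks, with differences of 3.24 ± 0.31, 4.10 ± 0.39 and -4.65 ± 0.53. Hepcidin (Hamp) read 8.07 and 10.42 at 4 weeks, with more than 2 units between the arrays, and was not called between 2 and 4 weeks. Of the 12 largest rises 8 were called between 2 and 4 weeks, and of the 12 largest falls 7. Between 2 and 4 weeks, the call of Mettl7b was lost without 2-week array 1 (adjusted p = 0.0837). For Mettl7b the call was lost without 2-week array 2 (adjusted p = 0.0644). Lpl and Igfbp2 kept their calls without each array.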

How the data were processed

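The deposited values were log2 levels per probe set, 29214 on each of 8 arrays, which the authors made, per the submitters' processing notes, with RMA and Affymetrix Expression Console. Versions were not given in the sources used here. Array medians lay between 5.98 and 6.17, and no further scaling was applied. Platform annotation gave 1 gene symbol for 15316 probe sets, several for 317 and none for 13581, and 15285 of the first kind were found among current RefSeq genes. The probe set with the highest mean stood for a gene where there were several (528 genes). The 4 groups of 2 arrays were fitted together with limma 3.58.1 (R 4.3.3), lmFit and eBayes (4 residual and 4.27 prior degrees of freedom), and p-values were adjusted by Benjamini-Hochberg over 14511 genes. The fit was tested on simulated data. Only 2 arrays a group limit the precision. Members and the 44 gene lists (874 of 998 entries measured) were chosen with earlier results of these data known. Named genes were the 12 largest non-overlapping rises and falls, up to 6 called genes and the first 3 measured genes of each list, and the 5 largest uncalled differences each way. Genes outside that rule are marked as chosen after their values were seen. Alternatives changed the scaling, probe-set choice, filter, variance model, samples, covariate, block and threshold. Promoters came from RefSeq (GRCr8), matched by symbol for 11972 genes.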

Additional observations from a re-analysis of the deposited data

Results flagged for a closer look

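At 2 weeks the distance from 12 weeks differed from that at 4 weeks in 66 genes, by the limma contrast of 2 minus 4 weeks at adjusted p under 0.05. Of these, 22 were higher at 2 weeks, Afp and Igf2 among them, and 44 were lower, with Thrsp, Scd, Cyp7a1 and Cyp2c12 among them.

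Probe sets with no gene name in the platform annotation were left out of the comparison. In a fit on all 29214 probe sets, adjusted over all of them, 76 of 13581 were called between 2 and 12 weeks (0.56%), 39 higher and 37 lower at 2 weeks. In that fit 204 of the 323 genes called above stayed called. The share of 0.56% is thus not comparable with the 2.23% of genes. With 2 arrays a group, no group was large enough to be examined for single outlying arrays.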

How the results depend on the processing

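With other settings the count of 323 genes called between 2 and 12 weeks was 181 with array weights, 140 in a fit on the groups compared alone and 109 at adjusted p under 0.01. It lay between 231 and 449 with a trended and robust prior, median centring, 75th percentile scaling, quantile normalization, a filter at the median level, the mean of a gene's probe sets, all probe sets or the receptor-gene level as a covariate. With all probe sets the count is one of probe sets, unnamed ones among them. Leaving out 1 array gave 101 to 382. The count of 66 between 2 and 4 weeks was 116 with array weights, 31 at adjusted p under 0.01 and 140 with the covariate, and 26 to 46 with 1 array left out. With replicate number as a block the counts were 515 and 129. The numbers are in the labels, but nothing ties same-numbered arrays to an animal or day, and the deviations of array 1 from the group means correlated at 0.02 between 2 and 12 weeks, 0.18 between 2 and 4, 0.34 between 4 and 12, and 0.24, 0.35 and 0.57 between the hepatectomy group and 2, 4 and 12 weeks. Of these 6 values 5 were above 0.1. The numbers were treated as names only, and pairing of the arrays was not settled. The spread was estimated from all 4 groups, so pairing between any of them would bear on the p-values given here. In each of these settings, 0 of the genes called in the main setting changed sign. The shares called higher differed from 57.9% by under 10 points with the 3 other scalings, which moved the median difference by -0.11, -0.10 and -0.03. Of the 323 calls, 308, 295 and 295 stayed called with those scalings. Among genes given with a difference or fold in the text, the calls ended were those of Hmox1, Sparc, Lgr5 and Rspo3 (median centring), Des, Hgf, Sparc, Lgr5 and Rspo3 (75th percentile) and Serpina7, Hells, Sult1b1, Des and Sparc (quantile). Over the genes named, 1682 of the values under settings that kept all arrays stayed on their side of the threshold, 222 lost a call and 20 gained one. With 1 array left out, 453 stayed, 187 lost a call and 10 gained one. The difference of Ugt2b then ran from -7.34 to 0.31 and that of RT1-N2 from -5.56 to 0.01, each changing sign. The cause of these shifts was not tested beyond the arrays and settings named. With 2 arrays a group, a gene that was not called cannot be read as unchanged.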

Other observations

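Called genes outside the lists, chosen here after their values were seen, add secreted, detoxifying and structural proteins to the picture of 2-week liver. Pigr, the receptor that carries immunoglobulin A across hepatocytes into bile, stood at 9.92 and 9.74 at 2 weeks and 13.33 and 13.21 at 12 weeks, 10.8-fold lower. Akr7a3, a reductase of aflatoxin aldehyde, stood at 6.18 and 5.52 against 8.98 and 9.88, 12-fold lower, and Glyat, which joins glycine to benzoate and related acids, at 7.13 and 7.85 against 10.87 and 10.97, 10.8-fold lower. The aldehyde oxidase Aox3 stood at 8.96 and 6.79 against 11.24 and 10.83, 8.94-fold lower, and Car3, a carbonic anhydrase known as male-biased in rat liver, at 9.71 and 7.64 against 12.16 and 11.49, 8.86-fold lower. Mpeg1, the perforin-like protein of macrophages, stood at 8.53 and 8.33 against 11.07 and 10.73, 5.57-fold lower. The list of 14 macrophage markers did not share this fall. It had 0 called, a median of 0.20, and 8 differences above 0 and 6 below. None of the 6 genes from Pigr to Mpeg1 overlapped between ages, which adds no support since they were picked as called after their values were seen. The call of Aox3 was lost without 2-week array 2 (adjusted p = 0.11). For Aox3 and Car3 the calls were lost without 12-week array 1 (adjusted p from 0.141 to 0.176). The calls of Aox3 and Car3 were lost without 12-week array 2 (adjusted p from 0.0548 to 0.0766). Pigr, Akr7a3, Glyat and Mpeg1 kept their calls without each array.

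Among further rises, Qsox1, which forms disulfide bonds in secreted proteins, stood at 11.76 and 12.14 at 2 weeks and 8.03 and 7.93 at 12 weeks, 15.7-fold higher. Gfra1, a co-receptor for the growth factor Gdnf, stood at 9.55 and 9.48 against 6.10 and 5.77, 11.9-fold higher, and Slc1a4, a carrier of neutral amino acids, at 9.85 and 9.29 against 6.83 and 6.82, 6.72-fold higher. Cdkn3, a phosphatase that acts on cyclin-dependent kinases, stood at 8.02 and 6.98 against 4.43 and 4.52, 8.16-fold higher, and the centrosome kinase Nek2 at 7.80 and 7.33 against 5.11 and 5.03, 5.64-fold higher. The linker histone H1f5 stood at 10.88 and 9.09 against 6.32 and 7.73 and the core histone H2ac21 at 7.34 and 7.53 against 4.55 and 5.46, 7.78-fold and 5.39-fold higher. Histone genes are near-identical copies, so single members are uncertain. The calls of H1f5 and H2ac21 were lost without 2-week array 1 (adjusted p from 0.0638 to 0.224). For H2ac21 the call was lost without 2-week array 2 (adjusted p = 0.0523). The call of H1f5 was lost without 12-week array 1 (adjusted p = 0.173). Qsox1, Gfra1, Slc1a4, Cdkn3 and Nek2 kept their calls without each array.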
